A study of Mus musculus with 5 samples.

Results

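The genes described here are 10 that mark astrocytes or carry out their handling of glutamate: Slc1a2, Slc1a3, Glul, Aqp4, Gja1, Sparcl1, Mlc1, Clu, Apoe and Aldoc. They were chosen by name, and every spot of the array that the platform annotation pairs with exactly 1 of these symbols was taken. This gave 21 of the 32042 spots with 1 gene symbol, for 10 of 19087 genes, each with a value on all 5 arrays. No spot that carries one of these symbols was paired with a second gene as well.

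RNA came from the nucleus accumbens, the ventral striatal region that receives midbrain dopamine, of male C57BL6 mice that had gone through conditioned place preference, a test that pairs a drug with a compartment and scores the time later spent there. The cocaine-treated mice received 15 mg/kg on days 2, 3 and 4 and scored low for the preference, and the saline-treated mice received saline on the same days. Each of the 5 two-colour arrays held amplified RNA of 1 mouse from each treatment, with the cocaine RNA in the dye Cy5 on 3 arrays (cocaine-in-Cy5 replicates 1 to 3) and in Cy3 on 2 (cocaine-in-Cy3 replicates 1 and 2). The label of the cocaine RNA on cocaine-in-Cy5 replicate 2 is that of replicate 1 with a suffix added, and both may be from 1 animal.

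Astrocytes clear the glutamate that neurons release. The transporters Slc1a2 and Slc1a3 in the astrocyte membrane take it up with sodium, and Glul, glutamine synthetase, turns it into glutamine, which returns to neurons and is made into glutamate again. In the accumbens, glutamate arrives mainly with fibres from cortex, amygdala, hippocampus and thalamus, and its uptake by astrocytes is a long-standing subject of work on cocaine in rats. The other genes serve water flow (Aqp4), gap junctions (Gja1), the membrane of perivascular end-feet (Mlc1), secreted matrix that takes part in synapse formation (Sparcl1), lipid transport (Apoe), an extracellular chaperone (Clu) and glycolysis in brain (Aldoc).

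The value table gives 1 log2 ratio of the 2 dyes per spot and array. Spots that hardly bind RNA mostly show the balance of the dyes. Of the gene spots below background, 87.7% were negative on all 3 cocaine-in-Cy5 arrays and positive on both cocaine-in-Cy3 arrays. All arrays were therefore taken to compare the treatments in 1 direction, with the swapped arrays already turned, which is a likely reading and not a stated one. Which treatment is the numerator is not stated either. The design text words the comparison as cocaine against saline, so a negative ratio, here called the denominator side, would then be lower in cocaine-treated mice. Over all features, the ratios of cocaine-in-Cy5 replicate 1 correlated at r = -0.32 with those of cocaine-in-Cy5 replicate 3 and at r = -0.03 with those of replicate 2. With cocaine-in-Cy3 replicates 1 and 2 it correlated at r = 0.47 and 0.38. Over gene spots above background, with the brightness trend described below removed, these values were -0.10, 0.16, -0.17 and 0.01. There, cocaine-in-Cy5 replicates 2 and 3 correlated at r = 0.30 and the 2 cocaine-in-Cy3 arrays at r = 0.53. Across orientations, these arrays gave r from -0.72 to -0.11, so their bright spots went with the dye orientation. What lies behind this was not tested. The gene spots below background of cocaine-in-Cy5 replicate 1 had a median of -0.69, beside -0.58 and -0.53 on cocaine-in-Cy5 replicates 2 and 3. The dim spots thus place this array with the others of its orientation. The correlations over all features set it apart, and its own direction is not settled. Results with its sign turned are therefore given as well.

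Brightness is not in the table and was worked out from the exact fractions behind the ratios. Spots whose recovered brightness passed 7.5 on the log2 scale were counted as above background. By this measure 10 of the 21 spots were above background, for 8 of the 10 genes, against 4251 of the 32042 spots with 1 gene symbol. These were 2 of the 5 spots of Slc1a2, 1 of the 2 of Slc1a3, 1 of the 3 of Glul, both of Sparcl1, 1 of the 2 of Aldoc, and the only spots of Mlc1, Clu and Apoe. None of the 3 Aqp4 spots was, with brightness from 6.27 to 6.36, nor was the Gja1 spot, at 7.07. The spot nearest below the limit was Aldoc feature 25438 at 7.47, and the one nearest above it was Slc1a2 feature 14360 at 8.52. The recovered brightness of the Aldoc spot had an SD of 0.52, so its side of the limit is not settled. Falling below the limit is no evidence that a transcript is missing from the tissue. Of the astrocyte genes outside the 10, 13 of 22 had a spot above background, and all 8 neuronal marker genes and all 8 medium spiny neuron genes that had a spot did as well. The tissue markers were thus present. Ependymal and choroid plexus genes gave 0 of 6 genes with a spot, Bergmann and radial glia genes 0 of 5, microglial genes 1 of 7 and endothelial genes 1 of 8.

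The spots below background carried this dye pattern. On 9 of these 11 spots the ratio was negative on every cocaine-in-Cy5 array and positive on both cocaine-in-Cy3 arrays. The 3 Aqp4 spots ran from -0.82 to -0.36 where cocaine was in Cy5 and from 0.45 to 0.65 where it was in Cy3. The 3 dim Slc1a2 spots ran from -0.92 to -0.22 and from 0.47 to 0.68 on the same arrays. The exceptions were the Gja1 spot and Aldoc feature 25438, which are also the brightest of the 11. Gja1, the main connexin of astrocyte gap junctions, stood at -1.15, -0.22 and -0.04 on cocaine-in-Cy5 replicates 1 to 3 and at -0.07 and 0.38 on cocaine-in-Cy3 replicates 1 and 2, so its groups by orientation overlapped. Averaged over both orientations, the treatment ratio of the 11 spots lay between -0.46 and 0.01 (limma, adjusted p from 0.731 to 0.976).

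**Figure D1:**
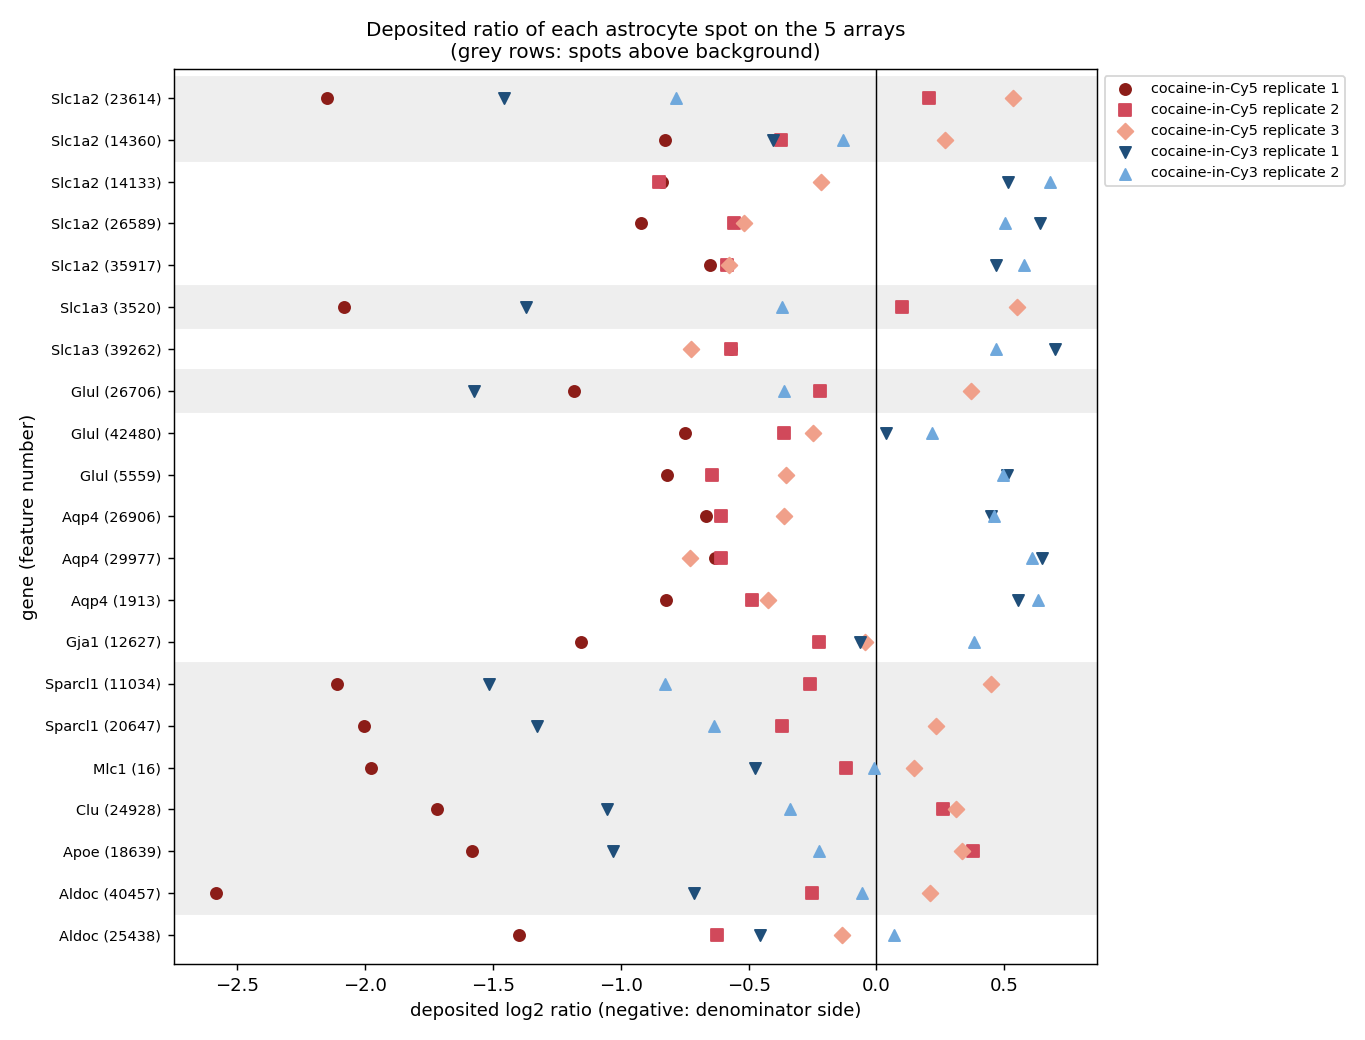
Deposited log2 ratio (horizontal axis) of each of the 21 spots of the 10 astrocyte genes (vertical axis, gene and feature number), with 1 point per array and grey rows for the 10 spots above background. On 9 of the 11 dim spots the cocaine-in-Cy5 points lie left of 0 and the cocaine-in-Cy3 points right of it, while on the grey rows cocaine-in-Cy5 replicate 1 or cocaine-in-Cy3 replicate 1 is lowest.

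Among the glutamate-handling genes, the bright spots of the 2 transporters gave nearly the same picture. Slc1a2 feature 23614 had deposited log2 ratios of -2.15, 0.21 and 0.54 on cocaine-in-Cy5 replicates 1 to 3 and of -1.46 and -0.78 on cocaine-in-Cy3 replicates 1 and 2. Slc1a3 feature 3520 had -2.08, 0.10 and 0.55 on the first 3 and -1.37 and -0.37 on the other two. Cocaine-in-Cy5 replicate 1 and cocaine-in-Cy3 replicate 1 were low and cocaine-in-Cy5 replicate 3 was high on both spots, so the orientations overlapped. The other bright Slc1a2 spot, feature 14360, was less spread, at -0.83, -0.37 and 0.27 with cocaine in Cy5 and -0.40 and -0.13 with cocaine in Cy3. The Glul spot, feature 26706, stood at -1.18, -0.22 and 0.37 with cocaine in Cy5 and at -1.57 and -0.36 with cocaine in Cy3, and here cocaine-in-Cy3 replicate 1 was the lowest. The treatment ratios were -0.79 ± 0.46 and -0.29 ± 0.18 for the 2 Slc1a2 spots, -0.67 ± 0.46 for Slc1a3 and -0.66 ± 0.30 for Glul (log2, SE over 5 arrays; limma, adjusted p 0.731 each). None of these passed the threshold of an adjusted p under 0.05 against the spread between arrays.

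The secreted and structural genes also had their lowest value on cocaine-in-Cy5 replicate 1. For Sparcl1, a matrix protein that astrocytes secrete, feature 11034 stood at -2.11, -0.26 and 0.45 with cocaine in Cy5 and at -1.51 and -0.83 with cocaine in Cy3, and feature 20647 at -2.0, -0.37 and 0.23 and at -1.33 and -0.63. Apoe, the main lipid carrier made by astrocytes, stood at -1.58, 0.38 and 0.33 and at -1.03 and -0.22. Clu, clusterin, followed it closely at -1.72, 0.26 and 0.31 and at -1.05 and -0.34. Mlc1, a membrane protein of end-feet, and Aldoc, the brain aldolase, differed from these on cocaine-in-Cy3 replicate 1, where they were less low. Mlc1 stood at -1.98, -0.12 and 0.15 and at -0.48 and -0.01. Aldoc feature 40457 stood at -2.58, -0.25 and 0.21 and at -0.71 and -0.06, the first being the lowest value of any of the 21 spots. Treatment ratios ran from -0.91 ± 0.42 for Sparcl1 feature 11034 to -0.45 ± 0.36 for Mlc1 (limma, adjusted p 0.731 each). The sizes for Mlc1, Apoe, Clu and Aldoc rest largely on cocaine-in-Cy5 replicate 1, and those for Sparcl1 do so less. Without that array the deposited ratios were -0.54 and -0.52 for the Sparcl1 spots, -0.11 for Mlc1, -0.13 for Apoe, -0.20 for Clu and -0.20 for Aldoc. Those of the glutamate-handling genes were then -0.37 and -0.16 for Slc1a2, -0.27 for Slc1a3 and -0.45 for Glul. Without cocaine-in-Cy3 replicate 1, Glul was at -0.35, Slc1a3 at -0.42, Clu at -0.36 and Apoe at -0.26.

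As deposited, 0 of the 21 spots passed the threshold of an adjusted p under 0.05, which 0% of all 43790 features passed (limma), and 0 had an unadjusted p under 0.05, against 2.28% of all features. The median treatment ratio of the 21 spots was -0.29, beside -0.02 for all features. For the 10 spots above background it was -0.64, beside -0.47 for all 4251 gene spots above background, and 10 of 10 lay on the denominator side, as did 99.7% of those 4251. On the denominator side of all 5 arrays lay 0 of the 10, against 6.02% of the 4251. The first count is therefore no result about astrocyte genes. Precision was low: 1 of the 10 bright spots, Slc1a2 feature 14360, had a 95% interval within 2-fold, against 22.7% of bright gene spots.

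The ratio changed with brightness in a different way on each array. At the brightness of the Slc1a3 spot the trend over all bright gene spots was -1.82, -0.13 and 0.26 with cocaine in Cy5 and -0.93 and -0.29 with cocaine in Cy3, which left that spot between -0.44 and 0.30 on every array. At the brightness of the Apoe spot it was -1.63, 0.02 and 0.42 and -1.29 and -0.50. With the trend of each array removed by loess over the 4251 bright gene spots, the median standard error of the 10 astrocyte spots was 0.10, beside 0.37 as deposited. It was smaller without the trend for 10 of the 10, least so for Slc1a2 feature 14360 (0.14, beside 0.18), and for 98.3% of bright gene spots.

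**Figure D2:**
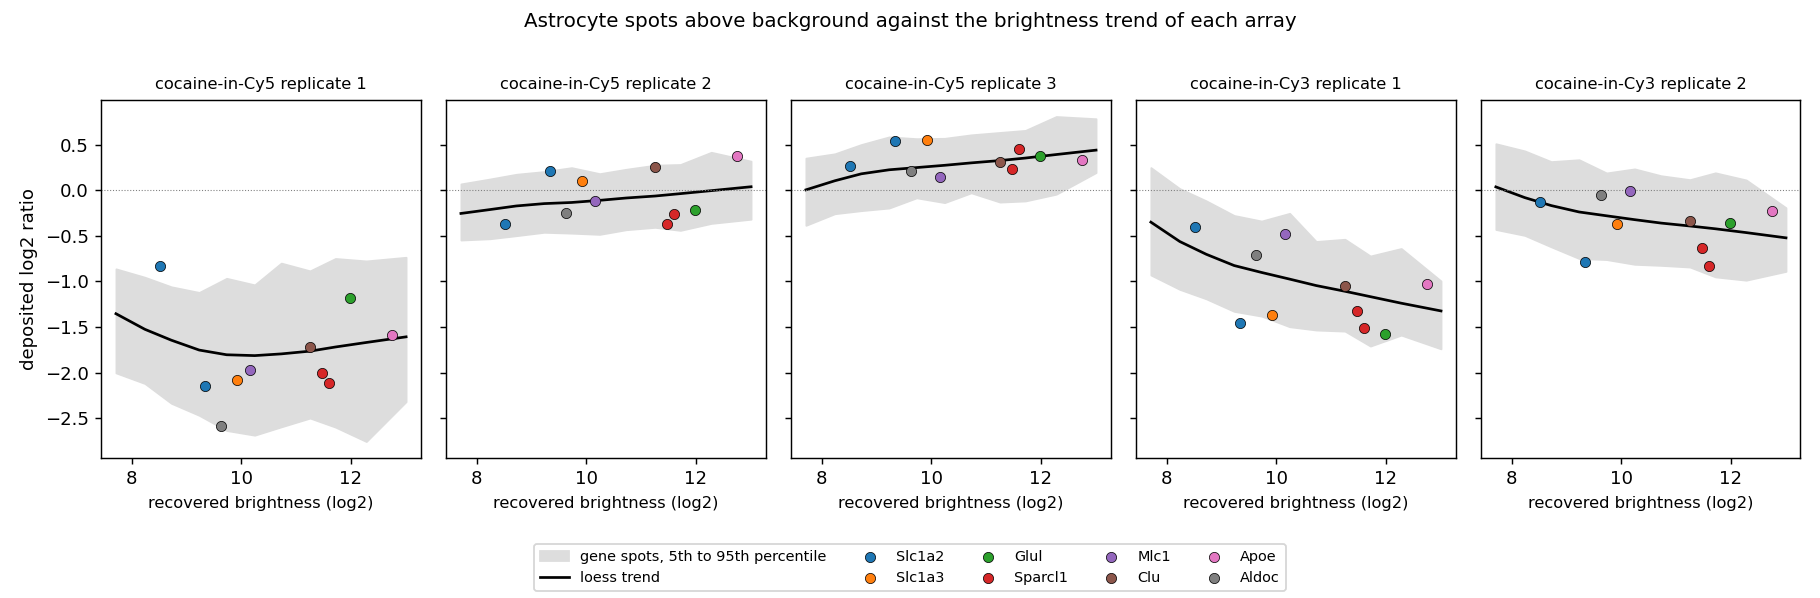
Deposited log2 ratio (vertical axis) against recovered log2 brightness (horizontal axis) on each of the 5 arrays, with the loess trend as a line, the 5th to 95th percentile of gene spots above background as a grey band and the 10 bright astrocyte spots as points. The points scatter about the line, which at their brightness lies between -1.82 and -1.60 on cocaine-in-Cy5 replicate 1 and between 0.15 and 0.42 on cocaine-in-Cy5 replicate 3.

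With the trend removed, Sparcl1 was on the denominator side and Apoe on the numerator side, both by small amounts that did not pass the threshold. Sparcl1 feature 20647 had trend-removed log2 ratios of -0.26, -0.32 and -0.10 on cocaine-in-Cy5 replicates 1 to 3 and of -0.19 and -0.23 on cocaine-in-Cy3 replicates 1 and 2, below 0 on 5 of 5 arrays. Sparcl1 feature 11034 had -0.38, -0.21 and 0.10 on the first 3 and -0.36 and -0.41 on the other two, below 0 on 4 of 5. The treatment ratio was -0.22 ± 0.08 for the first spot (95% interval -0.40 to -0.04) and -0.28 ± 0.09 for the second (-0.49 to -0.06), with an unadjusted p of 0.0230 and 0.0199 and an adjusted p of 0.658 for both (limma). These 2 spots read the same RNA and are not separate samples. Of all bright gene spots, 3.9% had an unadjusted p under 0.05 on the denominator side, 4.75% lay on 1 side of all 5 arrays and 2.8% on the denominator side of all 5, and 5.43% had a ratio at least as far to that side as Sparcl1 feature 20647. Sparcl1 is made by endothelial cells too. Of 8 endothelial marker genes 1 had a spot above background, Flt1, a receptor for vascular growth factor, which was below 0 on 5 of 5 arrays (-0.27 ± 0.08, adjusted p 0.658), and its part in the Sparcl1 value was not tested. Neither gene passed the threshold, and in bulk tissue a change in the number of cells and one in RNA per cell cannot be told apart.

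Apoe stood at 0.05, 0.36 and -0.09 with cocaine in Cy5 and at 0.27 and 0.28 with cocaine in Cy3 without the trend, above 0 on 4 of 5, with a treatment ratio of 0.19 ± 0.09 (95% interval -0.02 to 0.40, adjusted p 0.658). Clu stood at 0.04, 0.32 and -0.01 and at 0.05 and 0.06, with a ratio of 0.09 ± 0.08 (adjusted p 0.765). For both lipoprotein genes the highest value was that of cocaine-in-Cy5 replicate 2. Mlc1 was below 0 on all 3 cocaine-in-Cy5 arrays and above 0, at 0.49 and 0.31, on both cocaine-in-Cy3 arrays, so its ratio of 0.15 ± 0.08 (adjusted p 0.658) averages 2 orientations that did not overlap. Aldoc feature 40457 likewise had -0.79, -0.11 and -0.04 against 0.17 and 0.22, with a ratio of -0.06 ± 0.12 (adjusted p 0.898), or 0.06 without cocaine-in-Cy5 replicate 1. With the trend removed over all spots instead, that spot was at -0.10 ± 0.14. The dimmer Aldoc feature 25438 was then further to the denominator side, at -0.20 ± 0.06 (limma, adjusted p 0.676). Orientations did not overlap on 3 of the 10 spots, those of Mlc1 and Aldoc and Slc1a2 feature 23614, against 43.3% of bright gene spots.

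The 2 bright Slc1a2 spots disagreed once the trend was gone. Feature 23614 stood at -0.38, 0.35 and 0.30 with cocaine in Cy5 and at -0.61 and -0.53 with cocaine in Cy3, a treatment ratio of -0.24 ± 0.12 (95% interval -0.53 to 0.05). Feature 14360 stood at 0.77, -0.18 and 0.12 and at 0.25 and 0.01, a ratio of 0.18 ± 0.14 (-0.15 to 0.51). They had opposite signs on 4 of 5 arrays, and neither passed the threshold (limma, adjusted p 0.658 and 0.713), so the array gives no single value for this transporter. Without cocaine-in-Cy5 replicate 1 the ratios were -0.12 and 0.05, still of opposite sign but closer, and over the arrays left out in turn they ran from -0.31 to -0.12 and from 0.05 to 0.29. The annotation pairs them with different transcript records of the gene. Spots of 1 record differed as well: feature 35917, paired with the record of feature 14360, was below background at 6.21, beside 8.52. Whether the records account for the disagreement was not tested. Slc1a3 stood at -0.27, 0.23 and 0.30 and at -0.44 and -0.07 (ratio -0.09 ± 0.11, adjusted p 0.820), with the sign of Slc1a2 feature 23614 on each array. Glul stood at 0.51, -0.20 and 0.00 and at -0.37 and 0.08 (ratio -0.02 ± 0.13, adjusted p 0.974). The intervals leave room for changes of either sign in all 3 glutamate-handling genes.

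**Figure D3:**
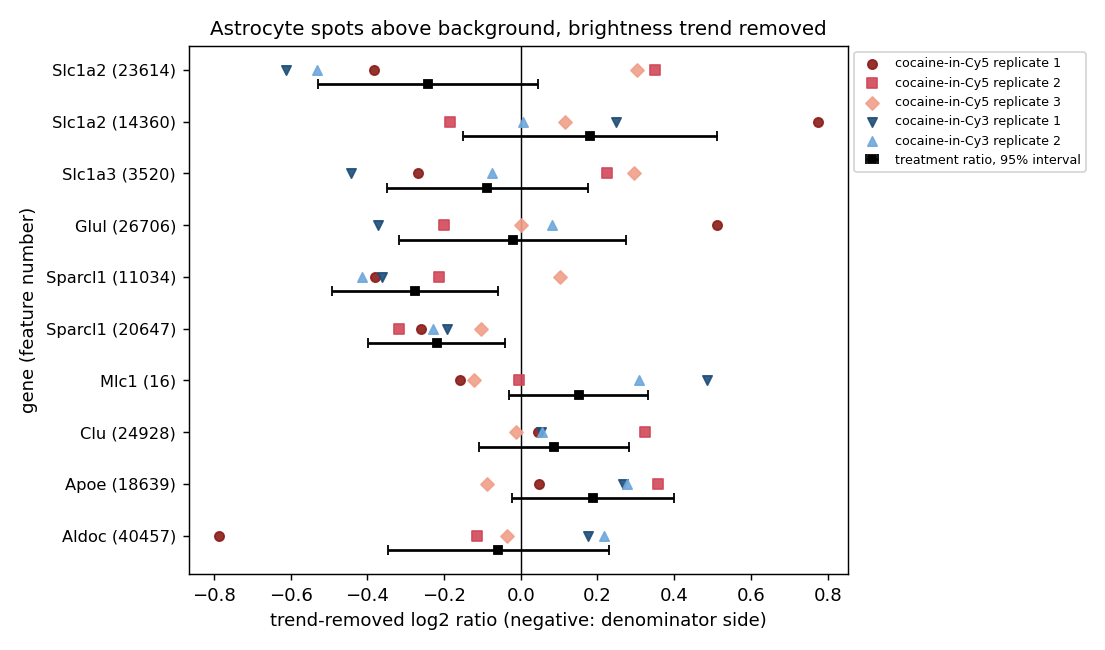
Trend-removed log2 ratio (horizontal axis) of the 10 astrocyte spots above background (vertical axis), with 1 coloured point per array and, as a black square with a bar, the treatment ratio of the fit with its 95% interval. The intervals of the 2 Sparcl1 spots lie below 0 before adjustment, those of the other 8 spots cross 0, and all 10 lie within 2-fold.

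Over the 10 bright astrocyte spots the trend-removed ratio ran from -0.28 to 0.19 with a median of -0.04, beside 0.00 for all bright gene spots, and 6 lay on the denominator side and 4 on the numerator side, where 50.4% of all bright gene spots lay. The threshold was passed by 0 of the 10 and by 0% of the 4251 (limma), and 2 of the 10 had an unadjusted p under 0.05, against 6.61% of the 4251. All 10 had a 95% interval within 2-fold, as did 99.7% of bright gene spots. A change of 2-fold or more relative to bright gene spots of like brightness thus lies outside the interval, while some smaller changes lie inside it. A shift that bright spots share is removed with the trend and is not bounded. The same step sets the bright gene spots of each array about 0, which largely fixes their 0.00 and 50.4%. As deposited, 1 of the 10 intervals lay within 2-fold.

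Within an array, differences between 2 of the genes are free of the offset of that array. In this way 3 pairs of genes were compared, as means over all spots of a gene, with an exact sign-flip permutation test (two-sided, smallest possible p 0.0625 with 5 arrays, so that no pair could reach 0.05). Apoe was above Clu on 5 of 5 arrays, by 0.14, 0.12 and 0.02 with cocaine in Cy5 and 0.02 and 0.11 with cocaine in Cy3, with a mean of 0.08 ± 0.06 (SD, n = 5; exact permutation p 0.0625, 0.188 adjusted over the 3 pairs). With the trend removed the difference was 0.08 ± 0.13 (SD), above 0 on 4 of 5 arrays (exact permutation p 0.312). Slc1a2 minus Slc1a3 was 0.09 ± 0.20 (SD, n = 5; exact permutation p 0.375, adjusted 0.562), and Slc1a2 minus Glul was 0.03 ± 0.17 (exact permutation p 0.75, adjusted 0.75), neither with 1 sign on all arrays. The means of Slc1a2, Slc1a3 and Glul include spots below background. With the brightest spot of each gene these 2 differences were -0.10 ± 0.19 and -0.14 ± 0.56 (SD).

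No other gene of the same pathways passed the threshold. Of 31 spots of 15 glutamate and glutamine cycle genes, 0 passed the threshold in either direction as deposited, and 8 spots of 7 genes were above background, 4 on each side without the trend (median 0.00, range -0.15 to 0.17). Named by the smallest deposited p, Grm5, a metabotropic glutamate receptor, stood at -0.01 ± 0.18 (adjusted p 0.988) and Slc38a1, a glutamine carrier, at -0.09 ± 0.08 (adjusted p 0.749). Of the potassium, water and coupling genes, 3 of 12 had a spot above background, all on the numerator side and 0 past the threshold: Slc4a4, a bicarbonate transporter, at 0.08 ± 0.09 (adjusted p 0.788), Clcn2, a chloride channel, at 0.03 ± 0.08 (adjusted p 0.936) and Atp1b2, a sodium pump subunit, at 0.21 ± 0.09 (adjusted p 0.658). Atp1b2 lies outside the naming rule and was added after its value was seen.

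Other astrocyte markers, 16 spots of 13 genes above background, had a trend-removed median of 0.09, with 11 on the numerator side, 5 on the denominator side and 0 past the threshold. Among them S100b, a calcium-binding protein, stood at 0.15 ± 0.10 (adjusted p 0.687) and Mt2, a metallothionein, at 0.09 ± 0.16 (adjusted p 0.884). Of 11 lipoprotein and cholesterol genes, 5 were above background (median 0.05, 0 past the threshold), with Lpl, lipoprotein lipase, at -0.23 ± 0.10 (adjusted p 0.658) and Vldlr, a receptor that binds Apoe, at -0.10 ± 0.10 (adjusted p 0.768). The reactive astrocyte list had 1 gene above background of 14, the filament gene Vim, at 0.13 ± 0.12 (adjusted p 0.755), so it gives little on a reactive state. For comparison, 14 spots of the 8 neuronal markers had a trend-removed median of 0.18, with 11 on the numerator side and 0 past the threshold. Of the 14, 5 had an unadjusted p under 0.05 (limma), against 6.61% of bright gene spots. These were spots of Eno2, Syp and Nefl, and the bright Nefl spots had opposite signs, at -0.28 and 0.25. The array medians of the 14 neuronal spots were -0.26, 0.02 and -0.28 with cocaine in Cy5 and 0.38 and 0.52 with cocaine in Cy3, so they moved with the dye orientation. The 9 medium spiny neuron spots had a median of 0.04, with 5 on the numerator side and 0 past the threshold. An unadjusted p under 0.05 (limma) was found for 3 of the 9, spots of Drd1, Tac1 and Ppp1r1b, against the same 6.61%. The array medians of the 9 were -0.21, -0.03 and 0.08 with cocaine in Cy5 and 0.59 and 0.24 with cocaine in Cy3, so they too moved with the dye orientation. The 4 oligodendrocyte spots had a median of -0.01, with 2 on each side, 0 past the threshold and 0 with an unadjusted p under 0.05. The 1 microglial spot, of C1qb, a complement subunit, was at 0.08 ± 0.09 (limma, adjusted p 0.793). The array medians of the 10 astrocyte spots were -0.21, -0.06 and -0.01 with cocaine in Cy5 and -0.07 and 0.03 with cocaine in Cy3.

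**Figure D4:**
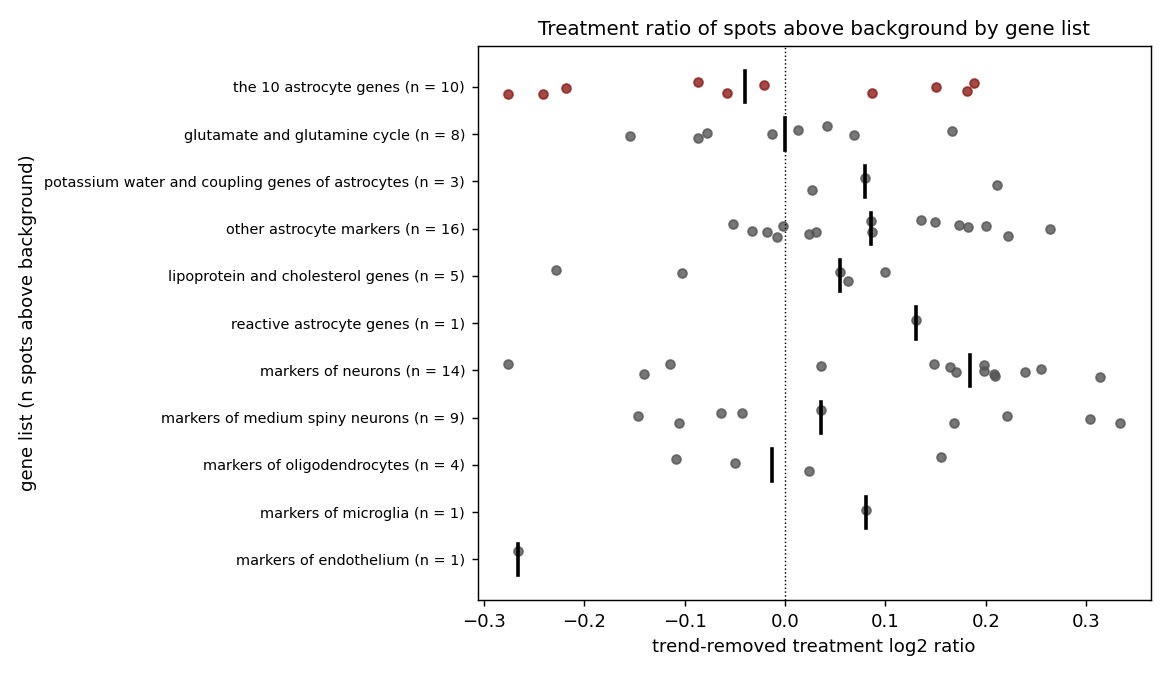
Trend-removed treatment log2 ratio (horizontal axis) of each spot above background, by gene list (vertical axis), with a vertical bar at the median of the list. The 10 astrocyte spots spread from -0.28 to 0.19 about a median of -0.04, and no spot of any list passed the threshold.

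Over the 10 bright astrocyte spots the mean trend-removed profile was nearly flat, at -0.09, 0.02 and 0.05 with cocaine in Cy5 and -0.08 and -0.03 with cocaine in Cy3. Spots of opposite sign cancel in this mean. The single spots ran from -0.79 to 0.77 on cocaine-in-Cy5 replicate 1 and from -0.61 to 0.49 on cocaine-in-Cy3 replicate 1. Among 4241 other bright gene spots, those closest to the mean profile by root mean square difference over the 5 arrays were spots of Rpl10, Rcc2, Scap, Slc20a1 and Mrpl27, at 0.04 to 0.05. They are close to the mean and need not resemble any single astrocyte gene.

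If every array is instead read as Cy5 over Cy3, the orientation term is the treatment. Under that reading 9 of the 21 spots passed the threshold as deposited, all below background and on the denominator side, against 78.4% of all features in either direction. The cocaine-in-Cy5 arrays alone also gave 9, beside 76.8% of all features. With the trend removed, the threshold was passed by 0 of the 10 bright astrocyte spots and by 0% of bright gene spots. Their ratios then included 0.33 ± 0.12 for Slc1a2 feature 23614 (limma, adjusted p 0.185), -0.25 ± 0.08 for Mlc1 (adjusted p 0.144) and -0.25 ± 0.12 for Aldoc (adjusted p 0.279). Under it Sparcl1 gave 0.11 ± 0.09 and -0.01 ± 0.08 (adjusted p 0.494 and 0.965), so neither spot was clearly on the denominator side under it.

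With the sign of cocaine-in-Cy5 replicate 1 turned, which was tried after the correlations between arrays were seen, 0 of the 21 spots passed the threshold as deposited, with a median ratio of 0.17 and a smallest adjusted p of 0.803 (limma). With the trend removed 0 of 10 passed, with a smallest adjusted p of 0.632. Sparcl1 kept its side at -0.15 and -0.13, as did Slc1a2 feature 23614 at -0.11, Glul at -0.19, Mlc1 at 0.20, Apoe at 0.17 and Clu at 0.07. Slc1a2 feature 14360 at -0.08, Aldoc at 0.20 and Slc1a3 at 0.00 changed sign, so for these 3 spots the side rests on how that array is read. Keeping a side here does not make it stable. Over 14 alternatives that keep the likely direction of all arrays, Glul ran from -0.14 to 0.10 and changed sign in 6. Slc1a2 feature 23614 and Mlc1 changed sign in 1 each, and Sparcl1, Apoe and Clu in 0.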

How the data were processed

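Total RNA was extracted with the PicoPure kit, put through linear amplification and dye labelling, per the labels' protocols. The submitters' processing notes name Agilent Feature Extraction. The sources used here give no version of it, no background correction and no normalization. The deposited values are log2 ratios with no centring: medians of the 5 arrays ran from -0.69 to 0.60. In the 3 cocaine-in-Cy5 columns, the antilog of over 99.99% of values was an exact fraction of whole numbers (relative tolerance 2e-14). The 2 cocaine-in-Cy3 columns hold 6 digits and were taken to share the log base.

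Brightness was recovered from those fractions by weighing their common factor over the 3 arrays (chance of a step of 0.5 set at 0.2, spread between arrays 0.25, lowest signal 35), with Python 3.11.15 and NumPy 2.4.6, and tested on simulated data. It carries an error and was chosen with earlier results known. Features at 0 on all arrays were left out, which leaves 43790. Treatment was fitted in R 4.3.3 by limma 3.58.1 (functions lmFit, eBayes; an intercept and an orientation term, 3 residual df, p-values adjusted by Benjamini-Hochberg over all features fitted), on deposited ratios and, over the 4251 gene spots above background, on ratios after loess on brightness (span 0.3). The labels do not say that every array holds separate animals, so p-values measure only the spread between these arrays. Whether background was subtracted is not stated. If it was not, ratios of dim spots understate a change.

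Spots were named through the platform annotation. The record of 14 of the 21 spots was found under the same gene in the RefSeq gene table of GRCm38.p6. The 10 genes and all lists were chosen with earlier results of these data known. From each pathway list the 2 genes with the smallest deposited p among spots above background were named, and the 5 genes closest to the mean profile. Alternatives covered the reading of the sign, dye term, centring, quantile normalization, array weights, samples, brightness trend and threshold, normexp, eBayes settings and single arrays left out.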

Additional observations from a re-analysis of the deposited data

Results flagged for a closer look

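On 1 of the 10 bright astrocyte spots a single array lay far from the other four. The trend-removed log2 ratio of the Clu spot, feature 24928, was 0.32 on cocaine-in-Cy5 replicate 2, and its gap to the next value was 0.799 of the whole range, above the critical value of 0.71 for 5 samples. The other values of this spot lay between -0.01 and 0.06. Without that array the treatment ratio of Clu was 0.04, beside 0.09 with it. The check took the lowest and the highest value of each of the 10 spots, across both dye orientations and without adjustment for their number. The share of all bright gene spots that it would flag was not worked out. The flag is therefore no result about astrocyte genes.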

How the results depend on the processing

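No paired analysis was possible because the 2 dye orientations hold different arrays whose replicate numbers name no shared mouse, and the paired cocaine and saline RNAs of an array are already 1 ratio. The number of passing astrocyte spots stayed at 0 under every alternative but the pair that reads the orientation as treatment or uses 1 orientation alone. Reading every array as Cy5 over Cy3 gave a smallest adjusted p of 0.000214 (limma), 9 passing astrocyte spots and 81 passing spots among the 137 of the pathway lists. It put Aqp4 feature 1913 at -0.59, beside 0.01, and 78.4% of all features passed. The cocaine-in-Cy5 arrays alone gave 0.00367, 9, 76 and -0.58 for the same 4 quantities, where 76.8% of all features passed, and a trend-removed median of 0.088, beside -0.04. The median orientation term of the 21 spots, -0.26, was 0.32 after median centring, 0.20 after quantile normalization, 0.20 with cocaine-in-Cy5 replicate 1 turned in sign, and 0.16, 0.15 and 0.16 over spots brighter than 7.5, 7 and 8 alone, which leaves out the dim spots. Leaving out 1 array at a time gave smallest adjusted p-values of 0.573 to 0.991 as deposited and 0.501 to 0.994 without the trend, medians of -0.43 to -0.11 and -0.10 to 0.05, orientation terms of -0.41 to -0.09, and pair differences of 0.04 to 0.16 for Slc1a2 minus Slc1a3, -0.04 to 0.07 for Slc1a2 minus Glul and 0.07 to 0.10 for Apoe minus Clu. Over 14 alternatives that keep the likely direction of all arrays, the 2 Sparcl1 spots without the trend ran from -0.34 to -0.16 and from -0.25 to -0.20, with adjusted p from 0.164 to 0.994. Outside these ranges they were 0.11 and -0.01 with every array read as Cy5 over Cy3, and -0.15 and -0.13 with cocaine-in-Cy5 replicate 1 turned. Of 160 alternatives of single spots without the trend, 22 changed sign, and of 378 as deposited, 57 did. Dim signal limits Aqp4 and Gja1, whose spots bound no change in the transcript.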
